A study of Mus musculus with 12 samples.

Results

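Lymphoid-primed multipotent progenitors (LMPP) were compared with granulocyte-monocyte progenitors (GMP) by bulk RNA-seq of sorted mouse bone marrow cells. The comparison takes 4 LMPP and 4 GMP libraries, 8 of the 12 libraries analysed for the series, and 11945 of 38924 gene IDs passed the filter for testing, a level of at least 1 TPM in at least 4 of the 8 libraries. TPM is a transcript level scaled for transcript length and for the total of its library. All mice were wild-type females of the C57Bl/6J strain, and no agent or allele separates the groups. LMPP were sorted as Lin- Sca1+ cKit+ CD34+ cells without CD150 and with high Flk2 (the Flt3 receptor). GMP were sorted as Lin- cKit+ CD34+ cells without Sca1 or CD150 that carried the Fc gamma receptor (FcgR+). By their titles, 2 libraries of either type belong to batch 1 and 2 to batch 2, without a word on what a batch is. Donor age and RNA amount are not stated for the bulk sorts, because the protocol covers single-cell experiments. No label ties a library to its own animal or culture, so the p-values below reflect the variation among these libraries, which could be technical.

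LMPP lie near the top of the blood hierarchy: they can still give rise to lymphocytes as well as to myeloid cells, and they begin to transcribe lymphoid genes at a low level before any lineage is fixed. GMP lie further down the myeloid branch and give rise to neutrophils, monocytes and their relatives. GMP and their immediate progeny make the enzymes of the primary granules, the first granules formed by neutrophil precursors, which are folded and processed in the endoplasmic reticulum on the way to storage. In bulk samples such as these, fewer cells of a kind and less RNA per cell cannot be told apart.

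The libraries were first checked against their labels. The summed level of 5 defining LMPP genes (Flt3, Cd34, Kit, Ly6a, Dntt) ranged from 1180 to 1292 TPM in LMPP and from 164.8 to 227.9 TPM in GMP, and that of 5 defining GMP genes (Mpo, Elane, Prtn3, Ctsg, Fcgr3) ranged from 1064 to 1678 TPM in LMPP and from 20698 to 25569 TPM in GMP. Pearson correlations of log2(TPM + 1) were 0.91 to 0.969 within LMPP, 0.955 to 0.984 within GMP and 0.834 to 0.913 between the types. LMPP libraries listed more genes at 1 TPM or more than GMP libraries did, 12576 ± 461.2 against 11187 ± 120.2 (SD, n = 4 each), with no overlap (exact permutation test, two-sided, p = 0.0286, the smallest that 4 against 4 allows). Mitochondrially encoded genes took 23.6% ± 6.0 of TPM in LMPP and 18.0% ± 4.8 in GMP (exact permutation test, two-sided, p = 0.229). One library stood apart. LMPP batch 2 replicate 1 held 22273 TPM of 6 erythroid marker genes and 24446 TPM of 7 mature neutrophil marker genes, whereas the other 7 libraries held 31.6 to 958.6 TPM and 28.9 to 1650 TPM of these markers. The neutrophil surface gene Ly6g was listed at 112 TPM in that library, at 1.58 TPM in LMPP batch 2 replicate 3 and at 0 in the other 6.

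At an adjusted p under 0.05 by limma, 5032 genes differed between the types, 42.1% of those tested. Of these, 3570 were higher in LMPP (29.9%) and 1462 were lower (12.2%). A difference of at least 2-fold was found for 1598 of the genes higher in LMPP and 430 of the lower ones, at least 8-fold for 81 and 30, and at least 32-fold for 4 and 2. For 2715 genes (22.7%) every LMPP library lay above every GMP library, and for 984 genes (8.24%) every GMP library lay above. The split by direction depended on how the libraries were scaled. On deposited TPM the median log2 difference over all tested genes was 0.22 toward LMPP, and 70.9% of called genes were higher in LMPP. That share was 47.2% after median-ratio scaling, 48.3% after quantile normalization and 79.0% after rescaling without mitochondrial, ribosomal RNA and globin genes. These scalings moved the median over all genes by -0.23, -0.25 and 0.11. A smaller set was called in 1 direction under all 4 scalings, 1844 genes higher in LMPP (15.4%) and 1127 lower (9.43%). Medians of gene lists below are therefore to be read against 0.22, and each list's count under all 4 scalings stands beside its count on deposited TPM. A gene near 0 in GMP passed the filter only where LMPP was high, and so had to differ. Counts over the tested members of a list are therefore descriptions of those members and support nothing further. All differences below are LMPP minus GMP on the log2(TPM + 1) scale, with the standard error of the fit.

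**Figure D1:**
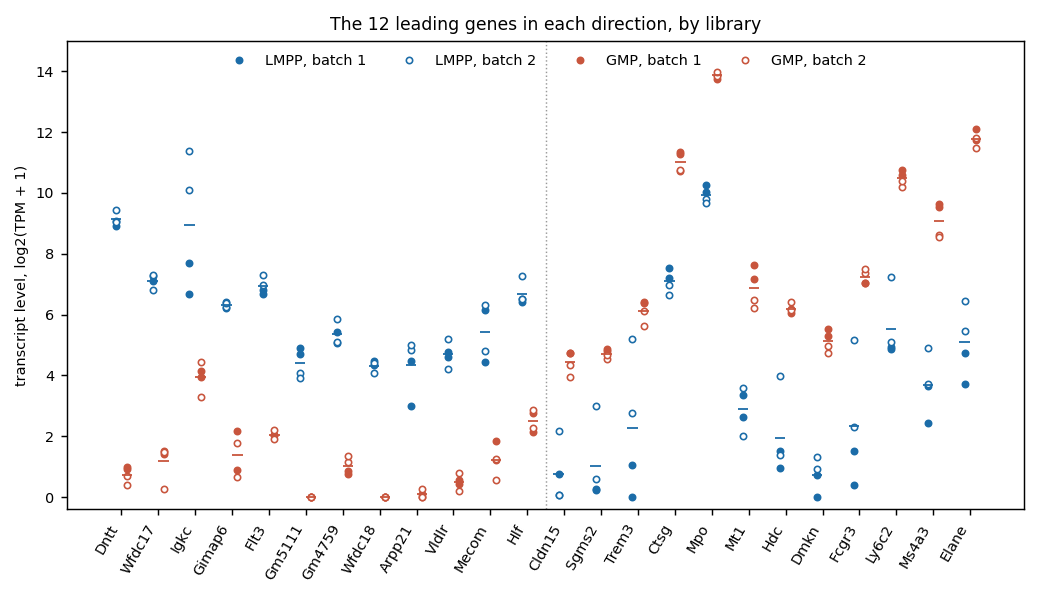
Level of the 12 genes with the largest difference in each direction, as log2(TPM + 1), in the 4 LMPP and 4 GMP libraries (points, filled for batch 1 and open for batch 2; bars, type means). No gene overlaps between the types; Igkc spans 100 to 2669 TPM among the LMPP libraries, and LMPP batch 2 replicate 1 is the highest LMPP library for 10 of the 12 genes lower in LMPP, all but Mpo and Ctsg.

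Genes for primary granule proteins led the genes lower in LMPP. Values by library are given throughout in the order batch 1 replicates 1 and 2, then the batch 2 libraries (replicates 1 and 3 for LMPP, 1 and 2 for GMP). Elane, which encodes neutrophil elastase (chromosome 10, 79886247 to 79888215, mm10), stood at 12.1, 25.5, 86.5 and 42.8 TPM in LMPP and at 4411, 3392, 2856 and 3597 TPM in GMP. The lowest GMP library was far above the highest LMPP library, and the difference was -6.69 ± 0.41 (adjusted p = 4.82e-06). Ms4a3, a membrane protein of granulocyte-monocyte progenitors (chromosome 19, 11629496 to 11640851), stood at 4.37, 11.53, 28.7 and 12.2 TPM in LMPP and at 745, 794, 387 and 372 TPM in GMP. Its difference was -5.41 ± 0.47 (adjusted p = 3.1e-05). Mpo, myeloperoxidase (chromosome 11, 87793581 to 87804413), was already abundant in LMPP, at 1051, 1219, 893 and 805 TPM, against 15177, 13726, 14810 and 15970 TPM in GMP. Mpo transcripts were thus present in every library, and the difference of -3.93 ± 0.12 (adjusted p = 9.34e-08) was smaller than that of Elane on this scale. Ctsg, the granule protease cathepsin G, stood at 99.3 to 186 TPM in LMPP and 1680 to 2577 TPM in GMP, a difference of -3.92 ± 0.11 (adjusted p = 8.06e-08). Prtn3, proteinase 3, differed by -3.63 ± 0.11 (adjusted p = 9.34e-08).

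Of the 14 genes of the primary granule list, all of which were tested, 12 were lower in LMPP and none was higher, with a median difference of -2.31. The list does not hold granule proteins alone, since it includes the membrane protein gene Ms4a3. The same count of 12 was called lower under all 4 scalings, and 12 of 14 had no overlap between the types. The 2 not called were Fcnb (-1.41), which encodes a secreted lectin, and Lyz2 (0.33), the lysozyme of myeloid cells. Without LMPP batch 2 replicate 1, 13 of the 14 were lower and none higher. In batch 1 alone 13 were lower, and in batch 2 alone 11, with none higher in either. As a share of all TPM the 14 genes took 0.323% ± 0.133 in LMPP and 2.64% ± 0.215 in GMP (SD, n = 4 each). A second list joins genes of the later, secondary granules with S100 and other neutrophil genes, and so does not hold granule proteins alone. Its members were mostly not called: of 18 matched, 17 were tested, 2 were lower in LMPP, 1 was higher and 14 were not called. Haptoglobin (Hp) stood at 4.25, 5.09, 90.7 and 12.3 TPM in LMPP and at 157, 146, 158 and 188 TPM in GMP, a difference of -3.53 ± 0.60 (adjusted p = 0.00147). Padi4, a peptidylarginine deiminase of neutrophils, was the gene that was higher in LMPP (2.26 ± 0.26, adjusted p = 0.00015). This second list includes markers that were high in LMPP batch 2 replicate 1. Without that library 4 of its members were lower in LMPP and 1 higher. The batches went opposite ways: in batch 1 alone 12 were lower and 1 higher, and in batch 2 alone, which holds that library, none was lower and 6 were higher.

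Other myeloid genes were lower in LMPP as well. The transcription factor Cebpe, which drives the later steps of granulocyte development, stood at 0.51, 0.18, 11.98 and 1.65 TPM in LMPP and at 29.5, 25.2, 21.4 and 18.9 TPM in GMP (-3.13 ± 0.57, adjusted p = 0.00212). The LMPP library nearest to GMP was batch 2 replicate 1, the one with neutrophil markers, whose part in this value was not tested. Cebpa, needed to form GMP, stood at 7.86 to 11.4 TPM in LMPP and 20.5 to 36.4 TPM in GMP, without overlap (-1.5 ± 0.18, adjusted p = 0.000202). Of 16 myeloid transcription factors tested of 17 matched, 8 were lower in LMPP and 2 were higher, and both counts held under all 4 scalings. In batch 1 alone 7 were lower and 4 higher, and in batch 2 alone 3 and 2. The lower ones also included Cebpd (-1.52), Irf8 (-1.13) and Spi1 (-0.97), which encodes PU.1. The 2 higher ones were Rara (1.29 ± 0.19), the retinoic acid receptor alpha, and Stat3 (1.0 ± 0.15), a cytokine-activated factor.

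Among 14 tested monocyte and macrophage genes of 17 matched, 8 were lower in LMPP and 1 was higher, 6 and 1 under all 4 scalings. Ly6c2, a depletion gene and a surface protein of monocytes with a near copy, Ly6c1, between which reads can be shared, stood at 29.9, 28.0, 150 and 33.6 TPM in LMPP and at 1739, 1534, 1171 and 1345 TPM in GMP (-4.95 ± 0.44, adjusted p = 3.89e-05). F13a1, a coagulation factor subunit made by monocytes, differed by -2.77 ± 0.26, and Ly86, a partner of the Toll-like receptor family member CD180, by -2.10 ± 0.18. The member that was higher in LMPP was Ctss (0.97 ± 0.17), cathepsin S of the antigen-presenting compartment. Mast cell, basophil and eosinophil genes were lower too, 9 of 15 tested (20 matched) and none higher, 6 under all 4 scalings. In batch 1 alone 7 were lower and none higher, and in batch 2 alone 4 and 2. Hdc, histidine decarboxylase, stood at 1.84, 0.93, 14.7 and 1.59 TPM in LMPP and at 71.0, 65.4, 85.0 and 69.7 TPM in GMP (-4.25 ± 0.49, adjusted p = 0.000159). Cpa3, a mast cell carboxypeptidase, stood at 51.4, 61.1, 167 and 131 TPM in GMP, above the 6.20 to 12.1 TPM of LMPP (-3.15 ± 0.27, adjusted p = 2.91e-05).

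The genes of protein entry, folding and quality control in the endoplasmic reticulum were lower in LMPP in nearly the whole list. Of 42 such genes, all tested, 36 were lower in LMPP, none was higher, and 35 were lower under all 4 scalings. Their median difference was -0.96, against 0.22 over all genes, and in 33 the types did not overlap. Sdf2l1, a luminal cochaperone, stood at 29.7, 21.3, 14.4 and 13.2 TPM in LMPP and at 127, 108, 106 and 103 TPM in GMP (-2.50 ± 0.17, adjusted p = 7.77e-06). Calr, the lectin chaperone calreticulin, stood at 217, 224, 164 and 189 TPM in LMPP and at 670, 627, 742 and 689 TPM in GMP (-1.78 ± 0.12, adjusted p = 7.08e-06). P4hb, a protein disulfide isomerase, differed by -1.77 ± 0.09 (adjusted p = 2.14e-06). For each of these the GMP libraries lay well above every LMPP library, in both batches. The change reached from the translocation channel (Sec61b, Sec61a1) and the signal peptidase (Spcs1, Spcs2, Spcs3) to the oligosaccharyltransferase (Rpn1, Rpn2, Ddost) and to Xbp1 (-0.90), a factor of the unfolded protein response.

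The promoters of several of these genes carry the endoplasmic reticulum stress element, through which the stress sensor ATF6 acts together with the factor NF-Y. The letters searched were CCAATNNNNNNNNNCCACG, on both strands, in the 250 bases upstream of each gene's start in RefSeq promoters of the GRCm38.p6 build. The element was found for 35 of 27025 genes with a window (0.13%) and for 15 of 8823 tested genes (0.17%). It was found for 3 of 2620 genes higher in LMPP (0.115%), for 8 of 1118 lower genes (0.716%), and for 7 of the 32 genes of the endoplasmic reticulum list with a window (21.9%). Those 7 were Hspa5, Hsp90b1, Calr, Canx, Pdia6, Dnajc3 and Creld2. Each was lower in LMPP on deposited TPM, and Canx (-0.57), a membrane chaperone, was not called under all 4 scalings. These 7 are thus among the 8 lower genes with the element, and the 2 shares are not separate results. A match to the letters is a description, not a measured binding site. The stretches of 4 of these promoters are shown because they carry the element in genes of different function, a main chaperone, a lectin chaperone, a disulfide isomerase and a small secreted factor. They are written in the direction of the gene, with the element in capitals, and in Calr and Creld2 it lies on the opposite strand.
Hspa5, chr2:34772000-34772068, plus strand: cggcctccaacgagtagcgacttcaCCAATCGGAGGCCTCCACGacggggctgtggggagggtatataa
Calr, chr8:84847050-84847118, minus strand: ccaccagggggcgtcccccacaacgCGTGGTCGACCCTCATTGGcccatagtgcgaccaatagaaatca
Pdia6, chr12:17266466-17266534, plus strand: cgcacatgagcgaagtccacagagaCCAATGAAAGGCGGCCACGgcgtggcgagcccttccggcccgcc
Creld2, chr15:88819495-88819563, plus strand: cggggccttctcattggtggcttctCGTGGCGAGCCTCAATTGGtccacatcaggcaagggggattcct
Hspa5, the central chaperone BiP, stood at 257, 316, 279 and 334 TPM in LMPP and at 529, 575, 988 and 853 TPM in GMP (-1.27 ± 0.15, adjusted p = 0.000179). Pdia6 stood at 82.2, 95.7, 50.2 and 49.6 TPM in LMPP and at 206, 229, 177 and 169 TPM in GMP (-1.53 ± 0.13, adjusted p = 2.58e-05). Creld2 was less abundant, at 15.1 to 20.7 TPM in LMPP and 33.2 to 42.1 TPM in GMP, again without overlap. Hspa5, Pdia6 and Creld2 were singled out after their values were seen.

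**Figure D2:**
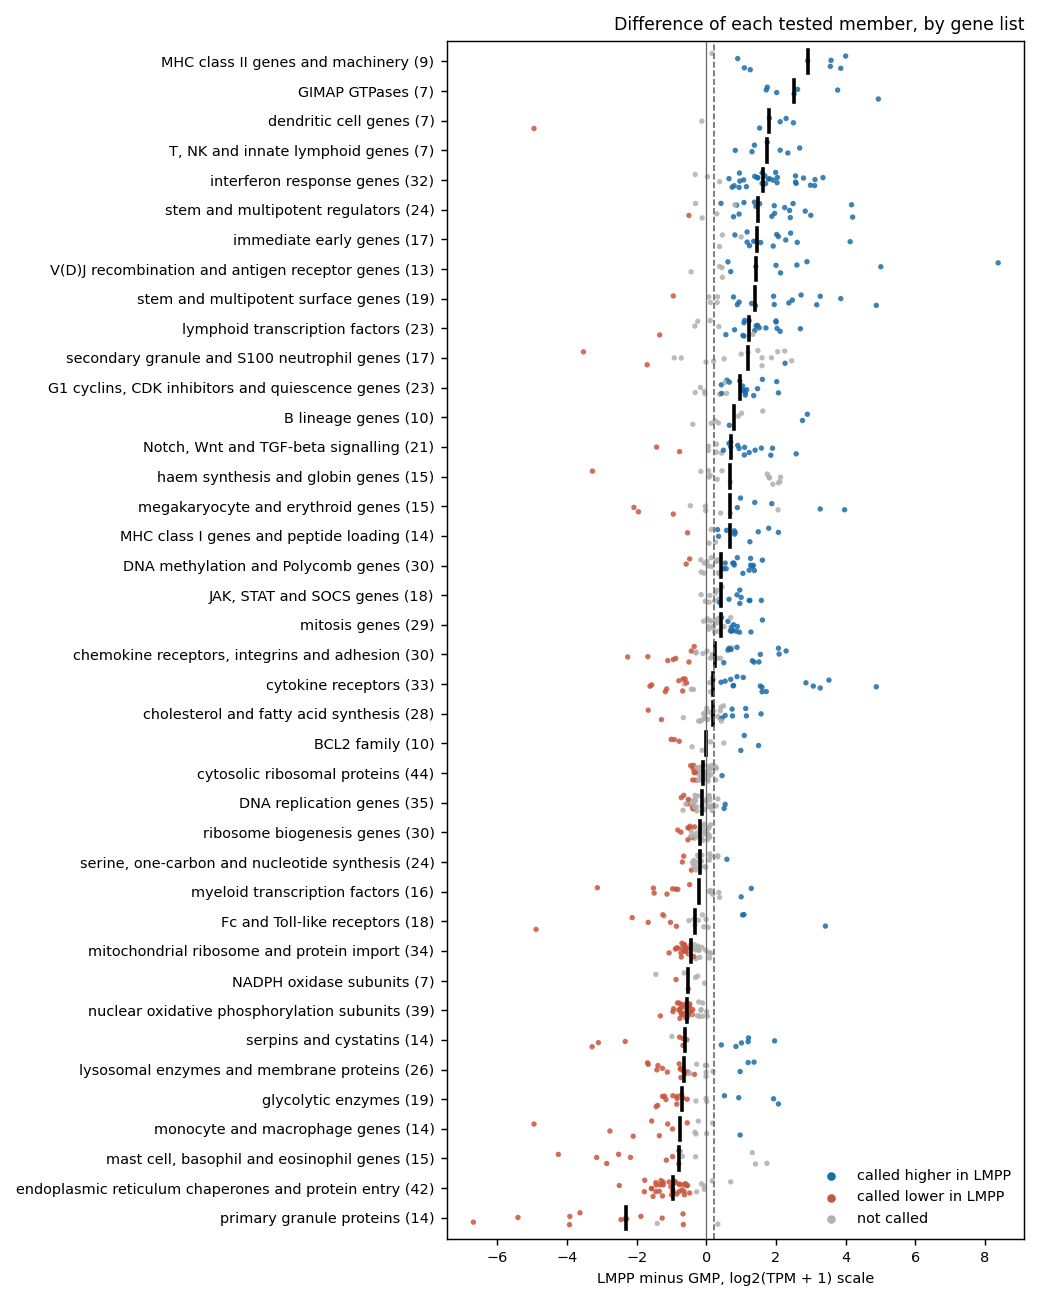
Difference of each tested member of the gene lists, LMPP minus GMP on the log2(TPM + 1) scale (points, blue for genes called higher in LMPP, red for lower, grey for not called; black bars, list medians; number tested in brackets). The dashed line marks the median of all tested genes, 0.22; the primary granule list lies lowest at -2.31 and MHC class II highest at 2.91.

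Lysosomal and energy genes were largely lower in LMPP. Of 26 lysosomal genes, 16 were lower and 3 higher, 15 and 3 under all 4 scalings. Ctsz, a lysosomal protease, stood at 22.0 to 28.9 TPM in LMPP and 76.5 to 93.0 TPM in GMP (-1.69 ± 0.12), Cd63, a membrane protein of lysosomes and granules, differed by -1.67 ± 0.18, and Hexa, a hexosaminidase, by -1.42 ± 0.12. Npc1 (1.37 ± 0.22), the cholesterol exporter of lysosomes, was higher in LMPP. Of 19 glycolytic genes, 12 were lower and 4 higher, 12 and 3 under all 4 scalings. The lower ones included Pgam1, Aldoa and Hk3, the last a hexokinase at 26.4 to 44.1 TPM in LMPP and 83.1 to 97.2 TPM in GMP (-1.44 ± 0.16, adjusted p = 0.000113). The 4 higher ones were the glucose carriers Slc2a3 (2.07 ± 0.25) and Slc2a1 (0.52 ± 0.15), the brain-type aldolase Aldoc (1.93 ± 0.23) and the muscle-type phosphofructokinase Pfkm (0.93 ± 0.17). Aldoc passed the filter through LMPP alone. Slc2a1 lost its call when any 1 of 3 libraries was left out (replicate 2 of GMP batch 1, replicate 1 of GMP batch 2, replicate 1 of LMPP batch 1), and under median-ratio and quantile scaling.

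Nuclear genes for mitochondrial proteins were also lower. Of 39 subunits of the respiratory chain and ATP synthase, 29 were lower in LMPP and none was higher, 23 under all 4 scalings, with a median of -0.55. Atp5g1, a ring subunit of ATP synthase, stood at 188, 171, 118 and 140 TPM in LMPP and at 462, 384, 350 and 334 TPM in GMP (-1.32 ± 0.11, adjusted p = 2.53e-05). Cox5a, a subunit of cytochrome c oxidase, stood at 230, 247, 99.6 and 96.0 TPM in LMPP and at 473, 425, 190 and 208 TPM in GMP, with lower levels in batch 2 for both types. Within each batch GMP was above LMPP, and the difference with the batch term was -0.96 ± 0.09 (adjusted p = 6.18e-05). Of 34 genes of mitochondrial ribosomes and protein import, 18 were lower and none higher, 14 under all 4 scalings. The cytosolic ribosome depended on scaling. On deposited TPM 8 of 44 ribosomal protein genes were lower in LMPP and 1 (Rpl5, 0.45, a call lost without GMP batch 1 replicate 1) was higher, after median-ratio scaling 30 were lower and none higher, after quantile normalization 1 was lower and 6 were higher, after rescaling 4 were lower and 6 higher, and under all 4 scalings 1 was lower and none higher. Their median difference was -0.09 on deposited TPM and 0.04 after quantile normalization. Of 30 ribosome biogenesis genes, 8 were lower and none higher, 5 under all 4 scalings.

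Haem synthesis differed at its first step. Alas1, the rate-limiting enzyme of haem synthesis outside red cells (chromosome 9, 106233455 to 106248654), stood at 14.9, 17.5, 24.2 and 22.9 TPM in LMPP and at 249, 216, 155 and 181 TPM in GMP. Every GMP library was well above every LMPP library (-3.27 ± 0.19, adjusted p = 4.08e-06). Of 15 haem and globin genes tested it alone was called in the fit of both batches, while 2 were lower without LMPP batch 2 replicate 1. In batch 1 alone 7 were lower and none higher, and in batch 2 alone 1 was lower and 2 higher. The erythroid form Alas2 and the globins (1.75 to 2.13 for Hba-a2, Hba-a1, Hbb-bt, Hbb-bs and Alas2) were not called, and LMPP batch 2 replicate 1 held most of the erythroid marker TPM of the LMPP libraries. Megakaryocyte and erythroid genes went both ways, with 6 of 15 tested (22 matched) higher and 3 lower, 4 and 3 under all 4 scalings. Of the 15, 2 passed the filter through LMPP alone. Car2, a carbonic anhydrase, stood at 191, 178, 471 and 253 TPM in LMPP and at 14.0, 21.2, 12.5 and 14.3 TPM in GMP (3.97 ± 0.28, adjusted p = 1e-05). Apoe, apolipoprotein E, differed the other way (-2.08 ± 0.27).

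On the LMPP side the largest difference belonged to Dntt, the terminal transferase that adds bases at antigen receptor joints (chromosome 19, 41029275 to 41059525). It stood at 485, 536, 698 and 532 TPM in LMPP and at 0.88, 0.97, 0.31 and 0.61 TPM in GMP, a difference of 8.38 ± 0.17 (adjusted p = 6.39e-09). It was 1 of 8 genes at 10 TPM or more in all LMPP libraries and under 1 TPM in all GMP libraries, and no gene showed the opposite pattern. Among the others were Vldlr, a lipoprotein receptor, Camk1d, a calcium-dependent kinase, Mcoln2, an endolysosomal channel, Pglyrp2, an amidase of bacterial cell wall, Wfdc18 and the uncharacterized transcript Gm5111. Wfdc18 stood at 15.8 to 21.1 TPM in LMPP and was listed at 0 in all 4 GMP libraries. Its relative Wfdc17 (chromosome 11, 83703991 to 83706268) stood at 152, 137, 111 and 157 TPM in LMPP and at 1.68, 1.89, 0.20 and 1.80 TPM in GMP (5.94 ± 0.25, adjusted p = 5.92e-07). Both encode small proteins of the whey acidic protein family.

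Of 13 tested genes of V(D)J recombination and antigen receptors (18 matched), 9 were higher in LMPP and none was lower, 8 under all 4 scalings. Dntt, Iglc2 and Trbc2 reached 1 TPM in no GMP library and passed the filter through LMPP alone. Igkc, the kappa light chain constant region, stood at 204, 100, 2669 and 1105 TPM in LMPP and at 16.5, 14.3, 8.86 and 20.7 TPM in GMP (5.01 ± 0.69, adjusted p = 0.000433). The batch 2 LMPP libraries were the higher ones. The B cell marker Cd79a was also highest in LMPP batch 2 replicate 1, at 9.63 TPM against 0.05 to 2.72 TPM in the other libraries. The part of such cells in the Igkc value was not tested. Rag2 (2.13), a subunit of the recombinase, and Ighm (1.42) were also higher, whereas Rag1 did not pass the filter. Of 22 matched T, NK and innate lymphoid genes only 7 passed the filter, and 3 of these (Cd4, Klrd1 and Ltb) reached 1 TPM in no GMP library and so passed through LMPP alone. The 7 were called higher, 6 under all 4 scalings. Lck, a T cell kinase, stood at 5.87 to 13.3 TPM in LMPP and 0.38 to 1.53 TPM in GMP (2.68 ± 0.27, adjusted p = 7.83e-05). The T and NK markers Cd3d and Ncr1 were listed at 0 in every GMP library, and the 5 T and NK markers summed to 1.21 to 6.99 TPM in LMPP and 0.06 to 0.37 TPM in GMP. Of 10 tested B lineage genes (16 matched), 3 were higher and none lower, a share near the 29.9% of all tested genes: the adaptor Blnk (2.90), the coreceptor Cd72 (2.76) and the kinase Syk (0.66). Blnk passed the filter through LMPP alone. Of the 10 B lineage genes, 3 were higher and none lower in batch 1 alone, and 6 and none in batch 2 alone. Without LMPP batch 2 replicate 1, 3 were higher and 1 lower.

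Lymphoid transcription factors were higher in LMPP for 17 of 23 tested (31 matched) and lower for 1, 16 and 1 under all 4 scalings, with a median of 1.23. Satb1, a chromatin organizer of early lymphocytes (chromosome 17, 51736187 to 51833290), stood at 260, 242, 316 and 402 TPM in LMPP and at 41.7, 32.6, 58.0 and 52.9 TPM in GMP (2.70 ± 0.12, adjusted p = 8.02e-07). Tcf4, an E protein, stood at 65.2 to 113 TPM in LMPP and 14.5 to 26.9 TPM in GMP (2.12 ± 0.15). Id2, an inhibitor of E proteins, was also higher (2.03 ± 0.34), at 2.55 to 12.6 TPM against 0.54 to 1.2 TPM. Bach2 (2.00) and Bcl11a (2.00) were higher too. The factors that fix the B and T cell fates, among them Ebf1, Pax5, Tcf7 and Gata3, did not pass the filter. Zbtb16, the lower one, was at 0.24 to 1.02 TPM in LMPP and at 2.04 to 4.04 TPM in GMP.

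Regulators of stem and multipotent cells were higher in LMPP for 19 of 24 tested (25 matched) and lower for 1, 17 and 1 under all 4 scalings, with a median of 1.47. Of the 24, 4 (Hoxa10, Hoxb4, Mycn and Nkx2-3) reached 1 TPM in no GMP library and passed the filter through LMPP alone. Mecom, a zinc finger factor of stem cells (chromosome 3, 29951296 to 30548008), stood at 69.4, 20.7, 26.9 and 78.4 TPM in LMPP and at 1.35, 2.60, 1.39 and 0.48 TPM in GMP (4.20 ± 0.44, adjusted p = 9e-05). Hlf, a leucine zipper factor (chromosome 11, 90336536 to 90390895), stood at 91.0, 84.5, 91.3 and 153 TPM in LMPP and at 5.88, 3.42, 6.30 and 3.81 TPM in GMP (4.17 ± 0.22, adjusted p = 2.11e-06). Meis1, a partner of HOX proteins, differed by 3.00 ± 0.16. The LMPP libraries varied widely in Mecom, yet the lowest was above all GMP libraries. Myb, needed by most blood progenitors, was the lower one, at 154 to 210 TPM in LMPP and 243 to 279 TPM in GMP (-0.50 ± 0.12, adjusted p = 0.00726). Its call was lost in batch 1 alone (-0.29, adjusted p = 0.11 by limma) and kept in batch 2 alone (-0.72, adjusted p = 0.0229 by limma). Of 19 tested stem cell surface genes (21 matched), 14 were higher and 1, Itga2b (-0.95), was lower, with the same counts under all 4 scalings. The 14 include the gate genes Flt3, Ly6a, Cd34 and Kit, and for Ly6a the sort fixed the direction. For Flt3 the LMPP gate favoured it, though the stated GMP gate does not name Flt3. Of the 19, 2 passed the filter through LMPP alone.

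The GIMAP genes, GTPases of immunity-associated proteins that support lymphocyte survival, lie side by side on chromosome 6. Of 8 matched, 7 passed the filter, 4 of them (Gimap4, Gimap5, Gimap7 and Gimap8) through LMPP alone, with under 1 TPM in every GMP library. The 7 were called higher in LMPP under every scaling, with a median of 2.52, and among them Gimap1, Gimap6 and Gimap9 reached 1 TPM in GMP libraries. Gimap6 (48701582 to 48708225) stood at 84.7, 73.7, 75.4 and 82.8 TPM in LMPP and at 0.86, 3.55, 2.41 and 0.59 TPM in GMP (4.94 ± 0.30, adjusted p = 4.86e-06). Gimap1, which overlaps the antisense gene Gimap1os so that their reads could be shared, stood at 33.7 to 57.2 TPM in LMPP and 1.81 to 3.41 TPM in GMP (3.77 ± 0.21). The other 5 were less abundant, with Gimap5 at 5.38 to 14.7 TPM in LMPP and 0.22 to 0.99 TPM in GMP (2.62 ± 0.29). The genes share a locus and similar sequences, so their values are not independent of each other.

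Antigen presentation genes were higher in LMPP. Of 9 tested MHC class II genes and cofactors (10 matched), 8 were higher and none lower under every scaling, with a median of 2.91, the highest of the lists. H2-Aa, a class II alpha chain, stood at 78.9, 93.3, 149 and 460 TPM in LMPP and at 7.45, 15.2, 7.73 and 5.68 TPM in GMP (4.00 ± 0.48, adjusted p = 0.000202). The batch 2 LMPP libraries were higher and replicate 3 the highest. H2-Ob, a regulator of peptide loading, varied little, at 47.8 to 69.8 TPM in LMPP and 2.25 to 3.89 TPM in GMP (3.86 ± 0.15, adjusted p = 3.64e-07). Of 15 matched dendritic cell genes, 7 passed the filter, and Ccr9, Cox6a2 and Itgax did so through LMPP alone. Of the 7, 5 were higher and 1 lower, the latter Ly6c2, 4 and 1 under all 4 scalings. The 3 plasmacytoid dendritic cell markers Siglech, Ccr9 and Cox6a2 summed to 8.93 to 24.1 TPM in LMPP and 0.38 to 1.56 TPM in GMP, and the part of such cells in the class II values was not tested. Of 14 MHC class I genes, 10 were higher and 1 lower, 7 and 1 under all 4 scalings. They included H2-Q7 (2.07 ± 0.13), which has near copies among the class I genes, and Nlrc5 (1.49 ± 0.17), the transactivator of class I genes. The lower one was Psmb10 (-0.54 ± 0.12), a proteasome subunit.

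Interferon response genes, which interferons switch on through factors that include STAT2 and IRF9, were higher in LMPP for 29 of 32 tested (32 matched) and lower for none, 28 under all 4 scalings. Their median difference was 1.64, and in 26 the types did not overlap. Of the 32, Ifit1, Ifit3, Mx2 and Oas2 reached 1 TPM in no GMP library and passed the filter through LMPP alone. Among the 28 others, 25 were higher. Ifi44 (chromosome 3, 151730922 to 151749960) stood at 19.4, 15.6, 18.2 and 26.9 TPM in LMPP and at 0.61, 0.73, 1.75 and 1.17 TPM in GMP (3.35 ± 0.19, adjusted p = 2.74e-06). Rtp4, a chaperone of receptor transport, stood at 19.8, 22.8, 27.0 and 28.2 TPM in LMPP and at 2.07, 1.58, 3.01 and 1.2 TPM in GMP (3.12 ± 0.21, adjusted p = 7.08e-06). Oas3, a sensor of double-stranded RNA, stood at 18.2, 18.0, 27.8 and 21.1 TPM in LMPP and at 1.58, 1.89, 0.94 and 1.88 TPM in GMP (3.11 ± 0.20, adjusted p = 7.08e-06). In each of the 3 the types did not overlap, in either batch. The factors of the response were higher by less, Stat2 by 0.96 and Irf9 by 1.46. The OAS and IFIT genes have near copies, so reads can be shared among them.

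The response element bound by these factors was searched as GAAANNGAAA, on both strands, in the same upstream windows. It was found for 936 of 27025 genes (3.46%) and for 305 of 8823 tested genes (3.46%). It was found for 116 of 2620 genes higher in LMPP (4.43%), for 34 of 1118 lower genes (3.04%), and for 11 of the 23 interferon response genes with a window (47.8%). Those of the 11 that were called higher are among the 116 as well. The stretches of 4 promoters are shown because they carry the element in single and in repeated form. They are written in the direction of the gene, with the matched letters in capitals, and in Ifit1 and Rsad2 they read on the opposite strand.
Oas3, chr5:120777700-120777759, minus strand: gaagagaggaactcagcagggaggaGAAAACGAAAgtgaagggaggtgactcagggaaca
Isg15, chr4:156200850-156200921, minus strand: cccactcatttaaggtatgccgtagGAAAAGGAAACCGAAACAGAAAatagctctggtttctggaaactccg
Ifit1, chr19:34640760-34640838, plus strand: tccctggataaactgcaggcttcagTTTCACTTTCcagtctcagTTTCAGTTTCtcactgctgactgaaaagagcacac
Rsad2, chr12:26456538-26456597, minus strand: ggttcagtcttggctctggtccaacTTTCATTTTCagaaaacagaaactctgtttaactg
Isg15, a ubiquitin-like protein with 3 overlapping matches, stood at 8.89, 12.95, 18.3 and 6.97 TPM in LMPP and at 4.17, 3.13, 0.84 and 5.44 TPM in GMP (1.6 ± 0.40, adjusted p = 0.0106). Ifit1, a binder of viral RNA with 2 matches, stood at 4.53 to 6.5 TPM in LMPP and 0.16 to 0.82 TPM in GMP (1.99 ± 0.22). Rsad2, the antiviral enzyme viperin with 1 match, stood at 13.1, 5.83, 38.2 and 11.2 TPM in LMPP and at 0.55, 1.37, 0.53 and 1.05 TPM in GMP (2.99 ± 0.43). Isg15, Ifit1 and Rsad2 were singled out after their values were seen. The core TTGCNNAA of sites for C/EBP factors was also searched in the same way. It was found for 2930 of 27025 genes (10.8%), 9.14% of tested genes, 9.27% of genes higher and 10.6% of genes lower in LMPP. It was also found for 2 of 12 genes of the primary granule list (16.7%) and 7 of 14 of the secondary granule and S100 list.

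Cytokine receptors went both ways. Of 33 tested (36 matched), 16 were higher in LMPP and 9 lower, 11 and 8 under all 4 scalings, with a median of 0.20. The 16 include Flt3, Kit and Il7r, which are gate or depletion genes, and 4 of the 33 passed the filter through LMPP alone. Il1r1, the interleukin 1 receptor, stood at 27.0, 33.0, 35.1 and 40.02 TPM in LMPP and at 1.07, 1.78, 2.98 and 2.53 TPM in GMP (3.52 ± 0.17, adjusted p = 1.11e-06). Il18r1 (3.07), of the same family, was also higher. Ifngr1, a chain of the interferon gamma receptor, was lower in LMPP, at 36.5 to 55.4 TPM against 131 to 151 TPM in GMP (-1.62 ± 0.12, adjusted p = 1.07e-05). So were the macrophage growth factor receptor Csf1r (-1.57 ± 0.16) and 2 chains of the granulocyte-macrophage growth factor receptor, Csf2ra (-1.14) and Csf2rb (-1.18). Il18r1, Csf2ra and Csf2rb were singled out after their values were seen. Csf3r (0.18), the granulocyte growth factor receptor, was not called. Of 18 JAK, STAT and SOCS genes tested (21 matched), 9 were higher and none lower, 7 under all 4 scalings, led by Socs5 (1.58 ± 0.18). Cish, another of the 18, passed the filter through LMPP alone.

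Receptors of innate recognition were mixed. Of 18 Fc and Toll-like receptor genes tested (21 matched), 6 were lower in LMPP and 3 higher, 6 and 2 under all 4 scalings. The 6 include Fcgr3 and Fcgr2b, of the receptor on which GMP were sorted. That gate favoured their direction, though the stated LMPP gate does not name the receptor. Fcer1g, the signalling chain of Fc receptors, stood at 72.1, 86.3, 190 and 64.4 TPM in LMPP and at 303, 272, 297 and 333 TPM in GMP (-1.67 ± 0.27, adjusted p = 0.00117). Tlr7, a sensor of single-stranded RNA, was higher, at 9.42, 12.4, 19.99 and 30.3 TPM in LMPP and 0.31, 1.42, 0.70 and 0.30 TPM in GMP (3.42 ± 0.33, adjusted p = 5.66e-05). Of the 7 NADPH oxidase genes, which make the oxidative burst, 2 were lower, among them Cyba (-0.87), and 1 under all 4 scalings, while 5 were lower without LMPP batch 2 replicate 1 and in batch 1 alone, and none was called in batch 2 alone. The call of Cyba was lost when either batch 1 library of GMP, replicate 1 of LMPP batch 1 or replicate 3 of LMPP batch 2 was left out. Chemokine receptors, integrins and adhesion genes had 12 higher and 8 lower of 30 tested (33 matched), 8 and 7 under all 4 scalings. Of the 30, Ccr7, Ccr9, F11r, Itga9, Robo4 and S1pr1 reached 1 TPM in no GMP library and passed the filter through LMPP alone. Among the 24 others, 6 were higher and 8 lower. Of all tested genes 29.9% were higher and 12.2% lower, so the share of higher members among the 24 was near that of all genes. Ccr9 (2.29 ± 0.36), a homing receptor for the thymus and gut, and Robo4 (2.09 ± 0.21) were higher, and Itga1 (-2.26 ± 0.26), an integrin for collagen, was lower. Protease inhibitors of the serpin and cystatin families had 6 higher and 7 lower of 14 tested (22 matched), 3 and 5 under all 4 scalings. Slpi, the secretory leukocyte protease inhibitor, stood at 46.7, 31.7, 108 and 18.1 TPM in LMPP and at 422, 381, 358 and 306 TPM in GMP (-3.10 ± 0.43, adjusted p = 0.000462).

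**Figure D3:**
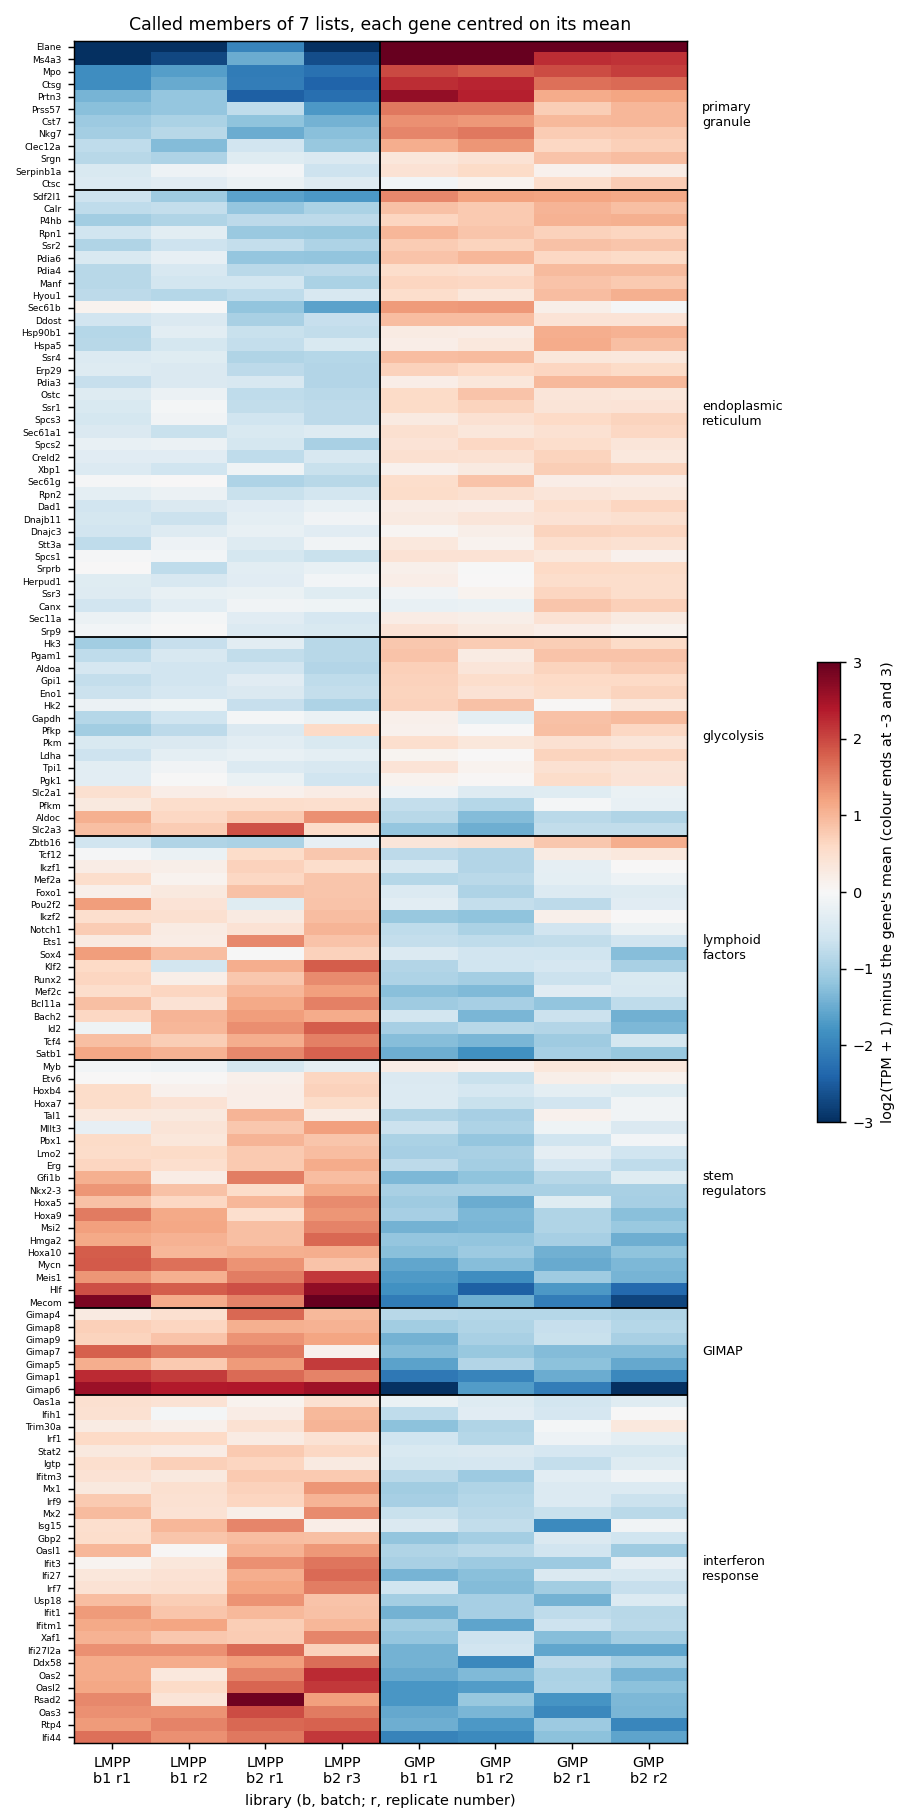
Called members of 7 lists, those reported here, in each library, as log2(TPM + 1) minus the gene's mean over the 8 libraries (red, above the mean; blue, below; colours end at -3 and 3). Primary granule, endoplasmic reticulum and most glycolytic genes are mostly red in the GMP libraries, and the GIMAP genes and the interferon response genes shown are mostly red in the LMPP libraries.

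Calls on cell cycle genes depended on the batch. Of 35 DNA replication genes, 6 were lower in LMPP and 2 higher, 4 and none under all 4 scalings, and after median-ratio scaling 17 were lower and none higher. In batch 1 alone 2 were lower and 6 higher, and in batch 2 alone 10 and none, so no direction is given for the list. Cdc45 (-0.72 ± 0.16) and Mcm5 (-0.65 ± 0.14), of the replicative helicase, were lower in the fit of both batches. Neither was called in batch 1 alone (adjusted p = 0.0772 and 0.0855 by limma). The 2 higher ones, Pola1 (0.54 ± 0.14) and Pole (0.51 ± 0.16), were not called in batch 2 alone. Of 29 mitosis genes, 12 were higher in LMPP and none lower, 7 under all 4 scalings, with 6 higher and 3 lower in batch 1 alone and 17 and none in batch 2 alone. Cenpf, a kinetochore protein, stood at 34.2, 36.9, 50.1 and 57.1 TPM in LMPP and at 16.3, 17.0, 12.7 and 9.69 TPM in GMP (1.61 ± 0.22, adjusted p = 0.000429). Of 23 tested G1 cyclins, CDK inhibitors and quiescence genes (25 matched), 16 were higher and none lower, 12 under all 4 scalings. Txnip, an inhibitor of thioredoxin and glucose uptake, stood at 228, 235, 172 and 190 TPM in LMPP and at 62.8, 46.6, 55.0 and 38.0 TPM in GMP (2.02 ± 0.14, adjusted p = 1.02e-05). Immediate early genes, which cells switch on within minutes of a stimulus, were higher for 14 of 17 tested (20 matched) and lower for none, 10 under all 4 scalings. Of the 17, Nr4a1 passed the filter through LMPP alone. Egr1 stood at 30.7, 9.38, 59.2 and 132 TPM in LMPP and at 0.99, 1.06, 2.55 and 0.93 TPM in GMP (4.13 ± 0.48, adjusted p = 0.000174).

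Cell death and survival genes of the BCL2 family went both ways. Of 10 tested (16 matched), 3 were higher in LMPP and 3 lower, with the same counts under all 4 scalings. Over all tested genes 29.9% were higher and 12.2% lower, so the share of higher members was near that of all genes. Bcl2, which blocks cell death, stood at 50.9, 49.3, 34.6 and 45.3 TPM in LMPP and at 19.3, 15.1, 23.4 and 25.02 TPM in GMP (1.09 ± 0.19, adjusted p = 0.00146). Mcl1 (0.99 ± 0.10), also protective, and Bcl2l11 (1.5 ± 0.15), which encodes the death-promoting BIM, were higher as well. The lower ones were the pore formers Bax (-0.92 ± 0.17) and Bak1 (-0.78 ± 0.13) and their activator Bid (-1.01 ± 0.14). Of 30 DNA methylation and Polycomb genes, 15 were higher in LMPP and 2 lower, 11 and 1 under all 4 scalings, led by the Polycomb subunits Cbx2 (1.61 ± 0.24), Phc1 (1.38 ± 0.17) and Cbx6 (1.35 ± 0.19). Of 21 tested Notch, Wnt and TGF-beta genes (34 matched), 14 were higher and 2 lower, 11 and 2 under all 4 scalings. Mfng, a glycosyltransferase that modifies Notch, stood at 29.5 to 49.8 TPM in LMPP and 8.73 to 10.8 TPM in GMP (1.90 ± 0.16), and Tcf7l2, an effector of Wnt, differed by 2.58 ± 0.23. Id1, a target of BMP signals, was lower (-1.43 ± 0.34), at 0 to 2.54 TPM in LMPP and 3.08 to 5.34 TPM in GMP.

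Lipid and one-carbon synthesis showed few calls. Of 28 cholesterol and fatty acid genes tested (29 matched), 7 were higher and 2 lower, 4 and 2 under all 4 scalings. The desaturases Fads2 (1.57 ± 0.26) and Fads1 (1.15 ± 0.16) and the regulator Srebf2 (1.13 ± 0.16) were higher. The sterol pathway enzymes Fdps and Mvd were lower, Fdps at 22.5, 30.6, 15.4 and 12.8 TPM in LMPP and 70.1, 66.8, 53.8 and 64.4 TPM in GMP (-1.67 ± 0.17, adjusted p = 8.22e-05). Of 24 serine, one-carbon and nucleotide synthesis genes tested (25 matched), 3 were lower and 1 higher, with the same counts under all 4 scalings. Over all tested genes 29.9% were higher and 12.2% lower.

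The genes of the sort gates and of the depletion are given as a description only. For Ly6a the sort fixed the direction, which does not hold for every gene given here. For Flt3 the LMPP gate favoured the direction, though the stated GMP gate does not name Flt3. Flt3 stood at 102 to 156 TPM in LMPP and 2.80 to 3.67 TPM in GMP, and Ly6a, which encodes Sca-1, at 86.0 to 156 TPM and 4.86 to 9.86 TPM. Fcgr3, of the Fc gamma receptor gate, stood at 0.33, 1.86, 35.1 and 3.90 TPM in LMPP and at 130, 132, 166 and 179 TPM in GMP. Cd34 and Kit, on which both types were positive, were higher in LMPP (1.41 ± 0.16 and 0.78 ± 0.14). Itgam (CD11b), against which cells were depleted, stood at 14.1 to 22.5 TPM in 3 LMPP libraries, at 90.8 TPM in LMPP batch 2 replicate 1 and at 15.2 to 17.6 TPM in GMP. It was not called (0.72 ± 0.43, adjusted p = 0.205 by limma). Ly6c2, also a depletion gene, stood at 1171 to 1739 TPM in GMP, above the 28.0 to 150 TPM of LMPP.

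The batches were compared directly by asking whether the difference between the types was the same in each. A change between the batches was called for 5 genes (0.0419% of those tested) at an adjusted p under 0.05 by limma. An unadjusted p under 0.05 was found for 1726 of the 11945 tested genes, more than the share of 0.05 that chance alone gives. With 2 libraries per type in each batch, a gene not called is not shown to differ equally in both. Ube2c, a mitotic ubiquitin enzyme, differed by -0.54 in batch 1 and 1.93 in batch 2. GMP stood at 207, 196, 54.0 and 44.8 TPM, lower in batch 2, and LMPP at 135, 142, 215 and 169 TPM. Tfam, which packages mitochondrial DNA, went from 1.16 in batch 1 to -0.58 in batch 2. Leaving out LMPP batch 2 replicate 1 gave 3829 genes higher and 1471 lower, of which 3351 and 1329 were among the genes called with it.

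**Figure D4:**
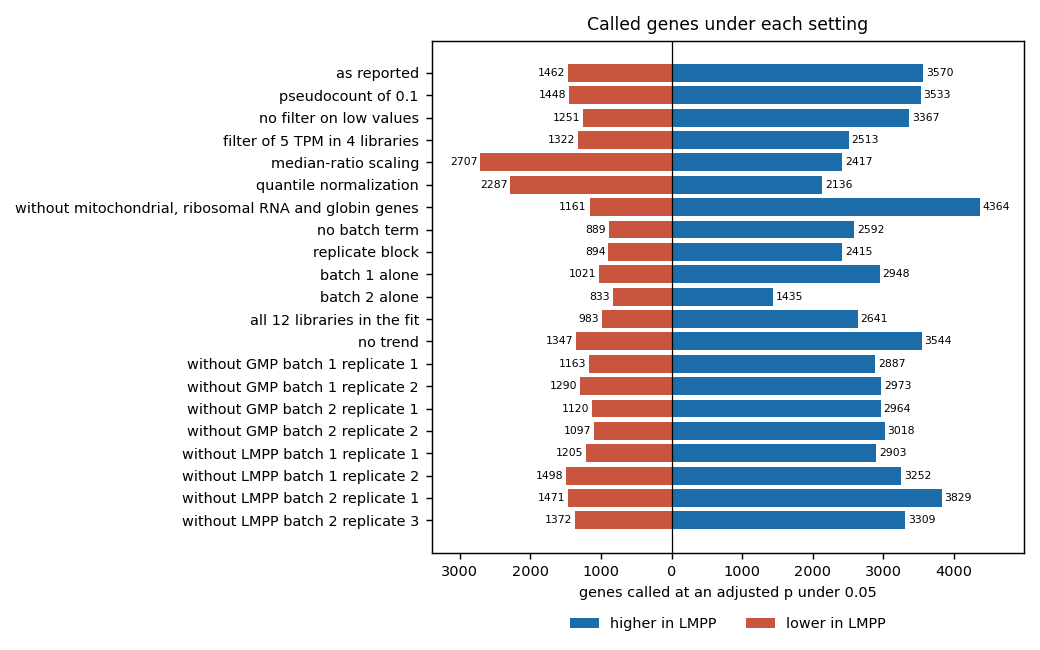
Number of genes called higher (blue, to the right) and lower (red, to the left) in LMPP at an adjusted p under 0.05, as reported and under each alternative setting. The number of higher genes runs from 1435 in batch 2 alone to 4364 after rescaling, and lower genes outnumber higher ones only under median-ratio scaling and quantile normalization.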

How the data were processed

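RNA from sorted bone marrow progenitors was sequenced by the authors, and the deposited table holds TPM per Ensembl gene ID, with library totals of 999999 to 1000001. The submitters' processing notes name RSEM 1.2.12, Bowtie2 2.2.0, edgeR 3.10.0 and the build mm10, without order or settings. RSEM shares reads among similar transcripts, so genes with near copies are uncertain, and whether strand was used is not stated. TPM keeps no depth, so the reads behind a value are unknown, no counting interval can be given, and a 0 is described as listed at 0. A further 17 columns carry names of no sample here and entered no step.

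Groups, replicate numbers and batches came from the sample titles. Gene names and positions came from a GENCODE annotation of the same build, and gave 37607 IDs a symbol. Genes reaching 1 TPM in 4 or more of the 8 libraries were fitted as log2(TPM + 1), which understates the change of low genes, with limma 3.58.1 in R 4.3.3, with type and batch as terms, a variance trend on mean level and 5 residual degrees of freedom. Tests are two-sided, and all adjusted p-values are from limma with Benjamini-Hochberg adjustment over all 11945 tested genes, called under 0.05. Median-ratio scaling, quantile normalization and rescaling without mitochondrial, ribosomal RNA and globin genes were the other 3 scalings; a pseudocount of 0.1, other filters, other designs, single batches and leaving out each library were tried too. Promoter letters were searched with Python 3.11.15.

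The comparison and the 43 gene lists (1020 entries, 1013 matched, 884 tested) were chosen with earlier results of these data known, so counts over a list are descriptions, and no list was tested as a set. Named genes were, in each direction, the 12 called genes of largest difference that had a symbol, no overlap and a type mean of 10 TPM or more. To these were added up to 3 called members of each list in its main direction and up to 2 in the other, members behind counts of 5 or fewer, genes on in 1 type only, and the gate genes. List members outside this rule that the text names by symbol and difference were chosen after their values were seen. A few genes and lists are not reported here.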

Additional observations from a re-analysis of the deposited data

Results flagged for a closer look

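Each named gene was checked for a library far from the other 3 of its type, on the log2(TPM + 1) scale, as a gap, relative to the group's range, above the critical value of Dixon's test. Of 350 such checks 13 met this, and chance alone gives about 1 in 20. In LMPP batch 2 replicate 1, Ly6c2 stood at 149.88 TPM (others 28.0 to 33.6), Ly6c1 at 10.67 TPM (others 2.61 to 2.85), Sgms2 at 6.98 TPM (others 0.18 to 0.52) and Fcgr4 at 5.49 TPM (others 0 to 0.29). In GMP batch 2 replicate 1, Wfdc17 stood at 0.2 TPM (others 1.68 to 1.89), Egr1 at 2.55 TPM (others 0.93 to 1.06) and Zfp36 at 49.31 TPM (others 26.2 to 27.5). In LMPP batch 1 replicate 1, Pfkm stood at 8.88 TPM (others 10.4 to 10.7), Bid at 14.3 TPM (others 18.9 to 19.2) and Bak1 at 40.1 TPM (others 26.6 to 28.4). Hlf stood at 152.99 TPM in LMPP batch 2 replicate 3 (others 84.5 to 91.3), Pgam1 at 464.62 TPM in GMP batch 1 replicate 2 (others 710 to 720), and Lfng at 0.36 TPM in GMP batch 2 replicate 2 (others 1.07 to 1.10).

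The difference between LMPP and GMP was called as not the same in the batches for 5 genes by the limma interaction test. That of Ube2c was 2.47 higher in batch 2 than in batch 1 (-0.54 and 1.93, adjusted p = 0.0126). That of Tfam changed by -1.74 (1.16 and -0.58, adjusted p = 0.0424). Plbd1, a phospholipase-like protein, changed by 3.8 (1.04 and 4.83, adjusted p = 0.0384); it stood at 5.34 and 4.12 TPM in the LMPP libraries of batch 1, at 78.3 and 69.1 TPM in those of batch 2 and at 1.15 to 2.59 TPM in GMP. The processed pseudogene Gm10146 changed by 4.68 (-0.72 and 3.97, adjusted p = 0.012). The immunoglobulin variable segment Ighv1-26 changed by 3.56 (1.08 and 4.64, adjusted p = 0.0415). Ighv1-26 was listed at 0 to 0.36 TPM in GMP, at 1.38 and 1.56 TPM in LMPP of batch 1 and at 22.9 and 24.9 TPM in LMPP of batch 2.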

How the results depend on the processing

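Of the 178 genes chosen by the naming rule none changed direction under the 20 alternative settings, but calls were lost: 47 in batch 2 alone (among them Cebpe, Cebpd, Hp, Fcer1g, Slpi, Kit and Bcl2), 16 in batch 1 alone, 20 without the batch term, 20 with the replicate block, 17 with all 12 libraries (among them Cd34, Hk3 and Cd63), and 0 to 12 under each other setting. Ube2c, Tfam and Gm10146, named for their interaction, differed in direction between the batches. Genes higher in LMPP numbered 2136 after quantile normalization and 1435 in batch 2 alone, against 3570 as reported. Genes lower in LMPP numbered 2707 after median-ratio scaling, 2287 after quantile normalization, 889 without the batch term and 833 in batch 2 alone, against 1462. With a replicate block, 2415 genes were higher and 894 lower. The replicate numbers were not shown to pair the samples (correlations of same-numbered deviations from the type means of 0.341, 0.104 and 0.0392). Leaving out 1 library at a time gave 2887 to 3829 higher and 1097 to 1498 lower genes. With all 12 libraries in the fit 2641 were higher and 983 lower. The pseudocount and the removal of the trend moved both counts by less than 1.5 times, as did the filters. The causes of these shifts were not tested, except that single batches hold fewer libraries. The interaction test was not rerun under the alternatives. Depth is unknown, so levels near 0 TPM carry an unknown counting error.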
